A study of Mus musculus with 405 samples.

Results

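The 10 genes described here encode acetylcholinesterase (Ache), 4 muscarinic acetylcholine receptors (Chrm1, Chrm2, Chrm3 and Chrm4) and 5 subunits of nicotinic acetylcholine receptors (Chrna3, Chrna4, Chrna5, Chrna7 and Chrnb2). They were picked by gene symbol as cholinergic genes, and all 10 were found among the 13304 genes of the chemical screen and among the 23893 genes of the pyraclostrobin count table. The data came from RNA-seq of primary mouse cortical cultures, made at embryonic day 15 from C57BL/6J mothers crossed with CAST/EiJ fathers. Every culture, vehicle included, was treated with an antimitotic, and chemical or vehicle was added on day 7 in vitro for 24 h. Vehicle was the solvent DMSO alone. The screen held 49 vehicle libraries and 344 libraries of 297 chemicals, mostly pesticides and other environmental chemicals, of which 282 chemicals had 1 library each and 257 were given at 10 uM. It included 36 organophosphates, 9 carbamate insecticides, 5 neonicotinoids and 247 other chemicals, the last with topotecan at 0.3 uM in 32 libraries. The separate count table held 4 pyraclostrobin libraries, at 0.1 uM, and 4 vehicle libraries.

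Acetylcholine is released by cholinergic neurons and acts on 2 families of receptor. Nicotinic receptors are pentameric ion channels that open when acetylcholine binds, and the combination of alpha 4 and beta 2 subunits and the alpha 7 pentamer are the main forms in the brain. Muscarinic receptors couple to G proteins: M1 and M3 act through Gq and phospholipase C, and M2 and M4 through Gi, which lowers cyclic AMP. Acetylcholinesterase ends the signal by hydrolysing acetylcholine. Organophosphate and carbamate insecticides inhibit that enzyme, and neonicotinoids are agonists of nicotinic receptors with a preference for those of insects. Proteins encoded by these genes, or their insect counterparts, are thus the intended target of most, not all, chemicals in 3 classes of the screen.

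Total counts over genes in the 8 libraries of the pyraclostrobin experiment ran from 2409623 to 7833440, and 1 count was worth 0.128 to 0.415 counts-per-million (CPM). Depth differed by group. The 4 pyraclostrobin libraries held 2409623 to 2550437 counts, while vehicle libraries 703 and 704 held 7833440 and 7082405, and vehicle libraries 428 and 702 held 2893598 and 2778615. The 4 libraries of each group are named here by the numbers of their columns, 428, 702, 703 and 704. Of the treated columns, only that of 428 is tied to pyraclostrobin by its label. The other 3 were taken as pyraclostrobin because they are the columns not marked as vehicle in the table that the labels of the remaining pyraclostrobin replicates cite. Library 428 with pyraclostrobin is also the screen's pyraclostrobin library, so those values are not independent. Both libraries numbered 428 stood apart for Chrm2, Chrm3 and Chrna7, where they were the lowest of their group. Vehicle cultures expressed the neuron markers Map2, Rbfox3, Tubb3, Snap25 and Syt1 at a summed 6060 to 6350 CPM. The 3 markers of cholinergic neurons, Chat, Slc18a3 and Slc5a7, summed to only 1.05 to 1.95 CPM, and Chat, which encodes the enzyme that makes acetylcholine, had 0 to 2 counts. In bulk RNA, fewer cells of a type and less RNA per cell cannot be told apart.

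Receptor and enzyme transcripts were present in vehicle cultures at very different levels. As CPM per kilobase of exon, the scale on which genes can be compared, Chrnb2, the beta 2 nicotinic subunit, was the highest of the genes with a usable length at 20.9 ± 1.63 (SD, n = 4). Next came Ache at 12.0 ± 3.06, Chrna4, the alpha 4 subunit, at 8.73 ± 1.16, Chrm1 at 7.07 ± 0.598 and Chrm4 at 6.83 ± 0.523 CPM per kilobase. From one of these 4 to the next, the ranges of mean ± SD overlapped. A lower group held Chrna7 at 3.16 ± 1.51, Chrna5, an accessory subunit, at 3.04 ± 0.44 and Chrna3 at 1.81 ± 0.378 CPM per kilobase, where the interval of Chrna7 spanned that of Chrna5 and met that of Chrna3. Chrm2 was the lowest, at 0.669 ± 0.375 CPM per kilobase, or 2 to 41 counts a library. Chrm3 was at 25 ± 7.37 CPM, and its 12.8 CPM per kilobase is an upper value, because the annotation used for lengths holds only 1 exon of 1.95 kb for it. The screen's values are centred on each gene and give no level.

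In mm9, the build of the files, the genes lie on several chromosomes. Ache is at chr5:137728747-137735694 and Chrnb2 at chr3:89557370-89568554. Chrna4 is at chr2:180753085-180778251, Chrm4 on the same chromosome at chr2:91762346-91769986, and Chrna7 at chr7:70243578-70357455. Chrna5, at chr9:54828687-54855586, and Chrna3, at chr9:54859150-54874366, are neighbours on opposite strands. Chrm1 is at chr19:8738495-8758077, Chrm2 at chr6:36338084-36478414, and the single annotated exon of Chrm3 at chr13:9876381-9878329. The kit does not mark strand, so reads could not be told apart over exon stretches shared with a gene on the opposite strand, which were 329 bases for Chrm1 (with a copy of 7SK), 142 for Chrm2 (with 9330158H04Rik) and 25 for Chrm4 (with Mdk).

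The 250 bases before the RefSeq start site are shown for 4 genes on which the results turn: Ache, Chrna4 and Chrnb2, which were lower with pyraclostrobin and higher with topotecan, and Chrm3, which had the largest topotecan difference of the 10. Sequences are from GRCm38.p6, at chr5:137288004-137288253 on the plus strand, chr2:181039178-181039427 and chr3:89764633-89764882 on the minus strand, and chr13:10360804-10361053 on the minus strand, and read 5′ to 3′ towards the start site. Capitals mark GGGCGG, the GC box, on either strand, and CACGTG, the E-box.
Ache: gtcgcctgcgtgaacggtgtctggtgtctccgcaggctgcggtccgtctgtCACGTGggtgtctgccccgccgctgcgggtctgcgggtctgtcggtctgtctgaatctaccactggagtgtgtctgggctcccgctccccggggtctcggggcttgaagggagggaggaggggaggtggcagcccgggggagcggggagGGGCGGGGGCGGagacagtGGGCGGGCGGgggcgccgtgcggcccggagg
Chrna4: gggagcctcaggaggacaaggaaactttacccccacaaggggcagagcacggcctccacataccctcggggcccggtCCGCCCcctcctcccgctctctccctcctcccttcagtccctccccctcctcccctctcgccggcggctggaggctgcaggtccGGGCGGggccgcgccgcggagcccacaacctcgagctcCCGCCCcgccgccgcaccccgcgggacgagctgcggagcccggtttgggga
Chrnb2: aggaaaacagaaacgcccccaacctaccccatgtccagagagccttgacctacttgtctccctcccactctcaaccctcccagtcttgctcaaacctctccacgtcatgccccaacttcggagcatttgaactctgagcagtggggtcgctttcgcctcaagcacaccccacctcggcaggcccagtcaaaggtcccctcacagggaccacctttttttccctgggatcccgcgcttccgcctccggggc
Chrm3: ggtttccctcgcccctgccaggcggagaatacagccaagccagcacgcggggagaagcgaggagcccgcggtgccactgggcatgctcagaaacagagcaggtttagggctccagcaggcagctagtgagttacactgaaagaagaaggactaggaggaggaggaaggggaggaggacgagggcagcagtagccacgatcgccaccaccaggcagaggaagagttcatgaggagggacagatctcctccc
Ache held 4 GC boxes, in overlapping or adjoining pairs, and 1 E-box, and Chrna4 held 3 GC boxes. Neither motif was found in the Chrnb2 and Chrm3 windows. Among 32851 promoter windows of that length, 32.7% held a GC box and 6.02% an E-box. The letters TGACGTCA, the cAMP response element, were in none of the 4 and in 1.55% of all windows. GC content was 73.6% for Ache, 74.4% for Chrna4, 59.6% for Chrnb2 and 61.2% for Chrm3, against a median of 52.4% over all windows. These matches are descriptions of the sequence.

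Pyraclostrobin, a strobilurin fungicide that blocks mitochondrial complex III, was compared with vehicle to ask how a chemical picked out by the screen changed expression in replicate cultures. The acetylcholinesterase transcript, 3 nicotinic subunit transcripts and 2 muscarinic receptor transcripts were lower as a share of all counts, by 1.56-fold to 2.73-fold. No member was called higher. All 10 passed the minimum of 10 counts in 4 libraries, but Chrna3 and Chrna5 did so through the vehicle libraries, where they were higher. By edgeR's quasi-likelihood test 6 of 10 were called lower at a Benjamini-Hochberg adjusted p under 0.05, where 16.4% of the 12324 genes tested were called lower, 18.5% higher and 34.9% in either direction. The same 6 had groups that did not overlap, with every pyraclostrobin library below every vehicle library, a pattern that 16.9% of genes showed in that direction and 18.2% in the other. With each library's size set to the summed counts of the 5 neuron markers instead, the median of all genes rose by 1.1 on the log2 scale, no member was called lower, and Chrm3, Chrna7 and Chrnb2 were called higher, where 85.6% of genes were called higher, 0.487% lower and 86.1% in either direction.

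Ache was at 70.6, 40.5, 64.0 and 46.8 CPM in vehicle libraries 428, 702, 703 and 704 and at 27.5, 23.3, 24.0 and 26.5 CPM in the pyraclostrobin libraries in the same order. The vehicle libraries differed among themselves far more than the treated ones, and the lowest of them was still above the highest treated library. The log2 change was −1.13 (SE 0.19, n = 4 and 4, edgeR adjusted p = 0.00103), a 2.19-fold lower share of counts. Relative to the neuron markers it was −0.03 (edgeR adjusted p = 0.902).

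Among nicotinic subunits, Chrna4 was at 43.5, 38.9, 51.1 and 38.9 CPM with vehicle and 18.1, 15.8, 15.2 and 17.4 CPM with pyraclostrobin, a log2 change of −1.38 (SE 0.16, edgeR adjusted p = 0.000109). Its usual partner Chrnb2 was at 102, 117, 109 and 122 CPM with vehicle and 58.9, 75.9, 65.8 and 87.3 CPM with pyraclostrobin, a log2 change of −0.64 (SE 0.14, edgeR adjusted p = 0.00478). Both fell in every treated library, Chrna4 to about the same level in all 4 and Chrnb2 over a wider range. Chrna5, which joins such receptors as an extra subunit, was at 8.56, 10.9, 9.16 and 7.80 CPM with vehicle and 3.14, 2.63, 3.04 and 4.34 CPM with pyraclostrobin, on 7 to 11 counts a treated library, and its log2 change was −1.45 (SE 0.26, edgeR adjusted p = 0.0014). Chrna3, an alpha subunit of the ganglionic receptor, was at 6.78, 6.23, 5.52 and 4.05 CPM with vehicle and 0, 3.01, 4.19 and 1.18 CPM with pyraclostrobin. Its groups overlapped by 1 library, and the difference of −1.37 (SE 0.55) did not pass (edgeR adjusted p = 0.0762). The 0 in library 428 allows up to 1.18 CPM, the worth of 3 counts, which covers counting error only. That gene depended on single libraries: without pyraclostrobin library 703 the difference was −1.98 and passed (edgeR adjusted p = 0.0362), and without both libraries numbered 428 it was −0.85. Chrna7, whose product forms the alpha 7 channel, was at 4.99, 13.6, 18.5 and 20.4 CPM with vehicle and 8.63, 16.9, 16 and 15 CPM with pyraclostrobin. These ranges overlapped, with the lowest value of each group in library 428 (log2 −0.07, SE 0.36, edgeR adjusted p = 0.897). Relative to the neuron markers, Chrna4 was at −0.27 and Chrna5 at −0.36, neither called, while Chrnb2 was at 0.45 (edgeR adjusted p = 0.00569) and Chrna7 at 1.02 (edgeR adjusted p = 0.0181).

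Of the muscarinic receptors, Chrm1 was at 41, 42, 45 and 49.4 CPM with vehicle and 20.8, 26.3, 25.5 and 26.5 CPM with pyraclostrobin, a log2 change of −0.84 (SE 0.14, edgeR adjusted p = 0.00106). Chrm4 was at 17.8, 17.5, 20.3 and 20 CPM with vehicle and 7.06, 7.89, 11.8 and 12.2 CPM with pyraclostrobin, a log2 change of −0.96 (SE 0.22, edgeR adjusted p = 0.00525). In both genes the vehicle libraries lay close together and every treated library lay below them. Chrm3 was at 14.3, 28, 30.9 and 27 CPM with vehicle and 7.85, 30.1, 22.5 and 22.9 CPM with pyraclostrobin (log2 −0.28, SE 0.34, edgeR adjusted p = 0.568). Chrm2 was at 0.713, 5.45, 5.52 and 4.5 CPM with vehicle and 1.57, 4.13, 3.81 and 5.53 CPM with pyraclostrobin (log2 −0.17, SE 0.49, edgeR adjusted p = 0.824). These overlapped, and library 428 was the lowest in each group for both genes. Relative to the neuron markers, Chrm1 was at 0.25, Chrm2 at 0.92 and Chrm4 at 0.13, not called, and Chrm3 at 0.80 (edgeR adjusted p = 0.0357).

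**Figure D1:**
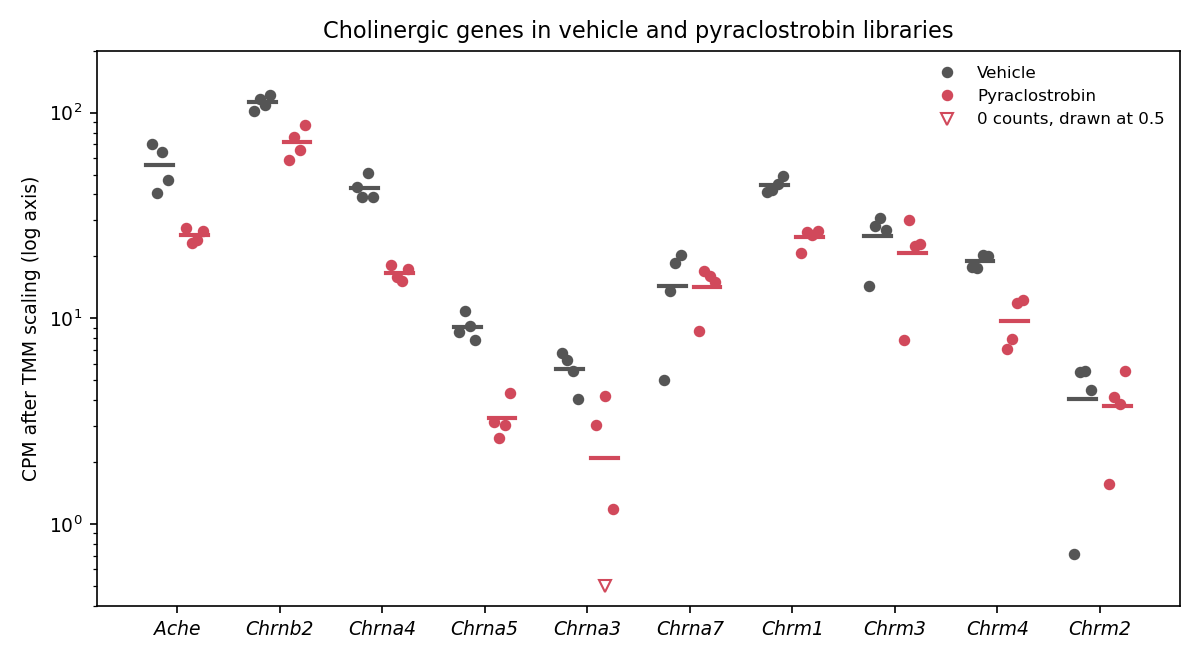
CPM after TMM scaling (log axis) of the 10 cholinergic genes (horizontal axis) in single libraries of vehicle (grey) and pyraclostrobin (red), with bars at the group means. Ache, Chrnb2, Chrna4, Chrna5, Chrm1 and Chrm4 were lower in all 4 treated libraries than in any vehicle library. Relative to neuron markers Chrm1, Chrm4 and Chrnb2 turned to differences of 0.25, 0.13 and 0.45 (log2). Ache was at −0.03, Chrna4 at −0.27 and Chrna5 at −0.36, none of them called. The open triangle is the library with 0 counts of Chrna3.

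Marker genes moved in the same libraries, where 16.4% of all genes tested were called lower and 18.5% higher. Neuron markers summed to 2540 to 3230 CPM with pyraclostrobin and all 5 were called lower, and GABAergic markers went from 607 to 1210 CPM with vehicle to 110 to 665 CPM, with 3 of 5 called lower. Glutamatergic markers were at 854 to 980 CPM with vehicle and 601 to 658 CPM with pyraclostrobin, with 1 of 4 called lower. The cholinergic neuron markers summed to at most 0.751 CPM, and none of the 3 had enough counts to be tested. Markers of non-neuronal cells were higher: astrocyte markers at 213 to 649 CPM against 586 to 2330 CPM (3 of 4 called), smooth muscle and fibroblast markers at 84.5 to 188 against 1170 to 1610 CPM (4 of 4 called), and microglia markers at 5.26 to 12.5 against 21.6 to 34 CPM (2 of 2 tested). Oligodendrocyte lineage markers were at 87.2 to 189 against 165 to 282 CPM (2 of 4 tested called higher). Endothelial and mural markers were at 4.04 to 5.06 against 8.29 to 19.8 CPM (1 of 1 tested), with Cldn5 at 0 in every library. The called markers Trem2 (4 to 11 counts with vehicle, 22 to 43 with pyraclostrobin), Aldh1l1 (7 to 74, 51 to 234) and Pdgfrb (8 to 19, 21 to 42) passed the count minimum through the treated libraries. They were higher there, so these calls add no separate support. The microglia markers Aif1 and Tmem119 had too few counts to be tested. The part of these shifts in the results above was not tested beyond the fit relative to neuron markers.

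Among other cholinergic genes, butyrylcholinesterase (Bche), which also hydrolyses acetylcholine, went the opposite way to Ache, from 3.15 ± 0.886 CPM with vehicle to 13 ± 3.31 CPM with pyraclostrobin (SD, n = 4), a log2 change of 2.09 (SE 0.30, edgeR adjusted p = 0.000418). With 9 to 24 counts in vehicle and 25 to 42 in treated libraries, Bche passed the count minimum through the treated libraries, where it was higher. The choline transporter Slc44a1 was higher by 1.10, and these were the only 2 of the 7 genes for synthesis, transport and breakdown with enough counts to be tested. None of the 12 other receptor subunits was testable. Of 6 genes for assembly and modulation of nicotinic receptors, 4 were lower and 1 higher. Over all genes tested 16.4% were called lower and 18.5% higher, which also stands beside the counts that follow. Lypd1 fell by 1.12 and Ly6e fell by 1.01 on the log2 scale, while Lynx1, whose product binds nicotinic receptors and damps them, rose by 0.98. Of 10 muscarinic effectors tested, 6 were lower and 1, Gnai2, was higher by 0.78. Among them Rgs4, which shortens G protein signals, fell by 1.3, and Plcb1, the phospholipase C below M1 and M3, fell by 0.88 on the log2 scale. Of 5 other serine hydrolases that organophosphates bind, Faah fell by 1.34 and Pnpla6 fell by 0.81 on the log2 scale, and Mgll rose by 0.56, with the other 2 not called. The median log2 change was −0.90 over the 10 members, −0.59 over the assembly genes, −0.55 over the effectors and 0.0 over all genes tested. Relative to the neuron markers no gene of these lists was called lower, where 0.487% of all genes were. On that scale Lypd1 was at −0.03, Rgs4 at −0.22 and Faah at −0.23. Ly6e (0.09), Plcb1 (0.21) and Pnpla6 (0.27) changed sign, and Bche was at 3.21.

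Topotecan, which traps topoisomerase I on DNA and was the screen's positive control, moved members in both directions, as it did genes of the whole table. In the screen 3 receptor genes were lower and the Ache, Chrna4 and Chrnb2 transcripts were higher, all with the limma test of 32 topotecan against 49 vehicle libraries. That made 3 of 10 lower where 20.9% of the 13304 genes were called lower, and 3 of 10 higher where 24.9% were called higher (45.8% in either direction). Values are log2 deviations from the gene's centre in the screen.

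Chrm3 ran from −0.41 through a median of 0.03 to 0.52 in vehicle libraries, and from −2.10 through −0.86 to −0.05 with topotecan. In 30 of 32 topotecan libraries it lay below the lowest vehicle library, a difference of −0.91 (SE 0.07, limma adjusted p = 1.14e-19). Chrna7 ran from −0.60 (median 0.02) to 0.94 with vehicle and from −0.93 (median −0.26) to 0.28 with topotecan, a difference of −0.28 (SE 0.06, limma adjusted p = 8.57e-05). Its groups overlapped widely, with 27 of 32 treated libraries below the vehicle median. Chrm2 ran from −0.90 (median −0.06) to 1.18 with vehicle and from −1.41 (median −0.26) to 0.41 with topotecan, a difference of −0.29 (SE 0.10, limma adjusted p = 0.0105), with 22 of 32 treated libraries below the vehicle median. These 3 genes also span the most genome of the 10 from start site to end in mm9, with 483.7 kb for Chrm3, 140.3 kb for Chrm2 and 113.8 kb for Chrna7, while the other 7 span 6.2 to 26.9 kb. The start sites are those of RefSeq placed in mm9, and the mm9 annotation by itself gives Chrm3 a span of only 1.9 kb. The paper included topoisomerase I inhibitors because such inhibitors were known to lower the expression of long genes, and it reports lower long genes with them in this screen. For the 10 members the property was noticed beside the values and was not tested.

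In the other direction, Ache ran from −0.55 (median −0.04) to 0.84 with vehicle and from −0.52 (median 0.45) to 0.82 with topotecan, with 30 of 32 treated libraries above the vehicle median (difference 0.37, SE 0.07, limma adjusted p = 1.39e-05). Chrna4 ran from −0.76 (median −0.06) to 0.49 with vehicle and from −0.23 (median 0.32) to 0.64 with topotecan, again with 30 of 32 above (difference 0.36, SE 0.06, limma adjusted p = 4.91e-08). Chrnb2 ran from −0.23 (median 0.07) to 0.55 with vehicle and from 0.03 (median 0.33) to 0.53 with topotecan, with 31 of 32 above (difference 0.25, SE 0.03, limma adjusted p = 3.11e-09). In these 3 genes nearly all treated libraries lay above the vehicle median, but only Chrna4 had any above the highest vehicle library, in 4 of 32. Chrm1 (0.05, 95% interval −0.05 to 0.15), Chrm4 (−0.10, −0.23 to 0.03), Chrna3 (−0.11, −0.35 to 0.14) and Chrna5 (−0.05, −0.20 to 0.09) were not called.

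**Figure D2:**
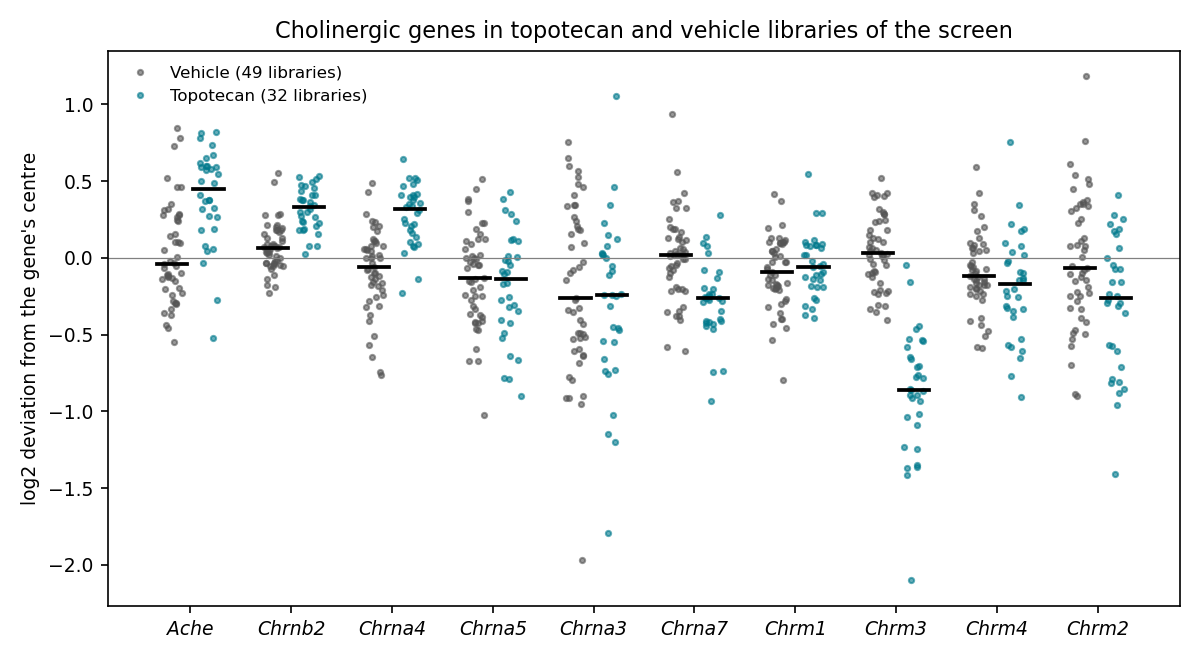
Log2 deviation from each gene's centre (vertical axis) of the 10 cholinergic genes in 49 vehicle (grey) and 32 topotecan (teal) libraries of the screen, each point a library and each bar a group median. For Chrm3 30 of 32 topotecan points lie below all vehicle points, while Ache, Chrnb2 and Chrna4 are shifted up by 0.25 to 0.37 within overlapping ranges.

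In the same comparison 7 of 11 effectors of muscarinic receptors were called lower and 2 higher. Over all genes 20.9% were called lower and 24.9% higher, which also stands beside the counts that follow. Kcnq5 fell by 1.67 and Kcnq3 fell by 0.82 on the log2 scale, both subunits of the M-current potassium channel that muscarinic receptors close, and Plcb1 fell by 1.58. Of 6 genes of nicotinic receptor assembly, 4 were higher and 2 lower, led by Tmem35, the chaperone of the alpha 7 receptor, which rose by 0.38 while Chrna7 itself was lower. Bche rose by 0.40 and Slc44a1 fell by 0.42 on the log2 scale. Of 5 serine hydrolases 2 were higher and 1 lower, with Pnpla6 at 0.32, and neither of 2 other receptor subunits in the table was called. All 5 neuron markers were lower as well (mean log2 deviation −0.86 to −0.14 per library, against −0.13 to 0.25 with vehicle). So were 4 of 4 astrocyte markers (−1.16 to −0.01 against −1.08 to 0.78) and 4 of 5 GABAergic markers, while 3 of 4 glutamatergic markers were higher. None of the 4 smooth muscle and fibroblast markers was called. The part of these markers in the results was not tested.

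The organophosphates, carbamates and neonicotinoids were each compared with the 247 other chemicals, using each chemical's median as 1 value. The question was whether transcripts of the cholinergic genes differed. No member was called in any of these comparisons by limma, and none reached an unadjusted p under 0.05. Over all 13304 genes, organophosphates had 8 called genes, all higher (0.0601%, with 0.0% lower), carbamates 0.0% and neonicotinoids 0.0%, and the genes at an unadjusted p under 0.05 were 918, 804 and 582 respectively. The 8 organophosphate genes were Jund, Jun, Dusp8, Arid5a, Crem, Ube2h, Rapgef6 and Plekhg1, named after their values were seen, with differences of 0.11 to 0.43. None is a cholinergic gene.

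For organophosphates, Ache ran from −0.51 (dimethoate) through a median of 0.03 to 0.53 (methidathion) over 36 chemicals, and the difference from other chemicals was −0.04 (95% interval −0.14 to 0.07, SE 0.05). The interval leaves room for a class mean lower by at most 0.14 on the log2 scale. The largest difference was in Chrna7, at −0.11 (−0.23 to 0.01, limma adjusted p = 0.749). Intervals for Chrnb2 (0.03, −0.02 to 0.08), Chrm3 (0.05, −0.03 to 0.13) and Chrm1 (0.05, −0.03 to 0.12) were the narrowest, and those for Chrm2 (−0.001, −0.19 to 0.19) and Chrna3 (0.01, −0.17 to 0.19) the widest. Chrna4 was at 0.02 (−0.07 to 0.11), Chrna5 at −0.04 (−0.16 to 0.09) and Chrm4 at −0.03 (−0.13 to 0.07). Against the vehicle libraries in place of other chemicals, Chrm4 (0.07), Chrna4 (−0.003) and Chrna5 (0.04) took the other sign with intervals that include 0. Chrnb2 did so as well, at −0.09 (95% interval −0.16 to −0.01, unadjusted p = 0.0226), which was not called (limma adjusted p = 0.267).

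Carbamates, which inhibit acetylcholinesterase reversibly, gave Ache from −0.42 (oxamyl) through 0.08 to 0.59 (methomyl) over 9 chemicals, a difference from other chemicals of 0.03 (95% interval −0.16 to 0.23). The receptor differences ran from −0.18 for Chrm2 (−0.54 to 0.18) and −0.15 for Chrna3 (−0.50 to 0.19) to 0.10 for Chrna5 (−0.15 to 0.34). With few chemicals in the class, these intervals are wider than those of the organophosphates. No carbamate value of any member left the vehicle range (0 of 90), where 4.27% of the values of all genes did with the same chemicals.

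Each neonicotinoid had 1 library at 10 uM. The alpha 7 gene Chrna7 was at 0.95 with imidacloprid, the highest of all 297 chemicals and above the highest vehicle library at 0.94, at 0.26 with thiamethoxam, 0.19 with thiacloprid, −0.14 with clothiandin and −0.35 with acetamiprid. The 5 analogs therefore spread over most of the vehicle range, and the class difference of 0.22 (95% interval −0.09 to 0.52, limma adjusted p = 0.998) was not called. Without imidacloprid it was 0.02. Chrna4 was at −0.31 with imidacloprid, −0.17 with clothiandin, −0.06 with acetamiprid, −0.03 with thiacloprid and 0.03 with thiamethoxam. Chrnb2 was at −0.18 with acetamiprid, −0.14 with thiamethoxam, −0.11 with thiacloprid, 0.06 with imidacloprid and 0.10 with clothiandin. Both stayed inside the vehicle range with every analog, and their class differences were −0.01 (−0.24 to 0.22) and −0.01 (−0.13 to 0.11). With 1 library per chemical, differences between analogs have no replicate check.

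As a rule, organophosphates with a P=O group act on the enzyme directly, and those with a P=S group need conversion to P=O in the body. Single chemicals can depart from that rule. By the bond alone, 17 chemicals with P=O were compared with 19 with P=S. No member was called by limma (3 genes of the table, 0.0225%, were called, with 2 higher, 0.015%, and 1 lower, 0.00752%, and 982 were at an unadjusted p under 0.05). Ache ran from −0.36 through −0.01 to 0.28 with P=O and from −0.51 through 0.09 to 0.53 with P=S, and differed by −0.09 (95% interval −0.28 to 0.10). Chrna5 had the largest difference, −0.29 (−0.53 to −0.05, unadjusted p = 0.0165, limma adjusted p = 0.524). It was below 0 in 14 of 17 P=O chemicals and in 7 of 19 P=S chemicals. Chrna3 was at −0.23 (−0.57 to 0.11) and the other members lay between −0.11 and 0.07.

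In the screen 2 organophosphates were present both as the P=S parent and as its P=O oxon, at the same 10 uM. Ache was at −0.22 with malaoxon and 0.01 with malathion, and at −0.24 with diazoxon and 0.37 with diazinon. The oxon was the lower of each pair, by 0.23 and 0.60, beside an SD of 0.46 for a difference between 2 vehicle libraries. For Chrm2 malaoxon was at −0.64 and malathion at 0.62, while diazoxon was at −0.03 and diazinon at −0.66, so the pairs pointed opposite ways. Chrna7 was at −0.10 with diazoxon and −0.79 with diazinon, a gap of 0.70 beside a vehicle SD of 0.40, and at −0.17 with malaoxon and 0.04 with malathion. These are 10 genes in 2 pairs with no test.

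**Figure D3:**
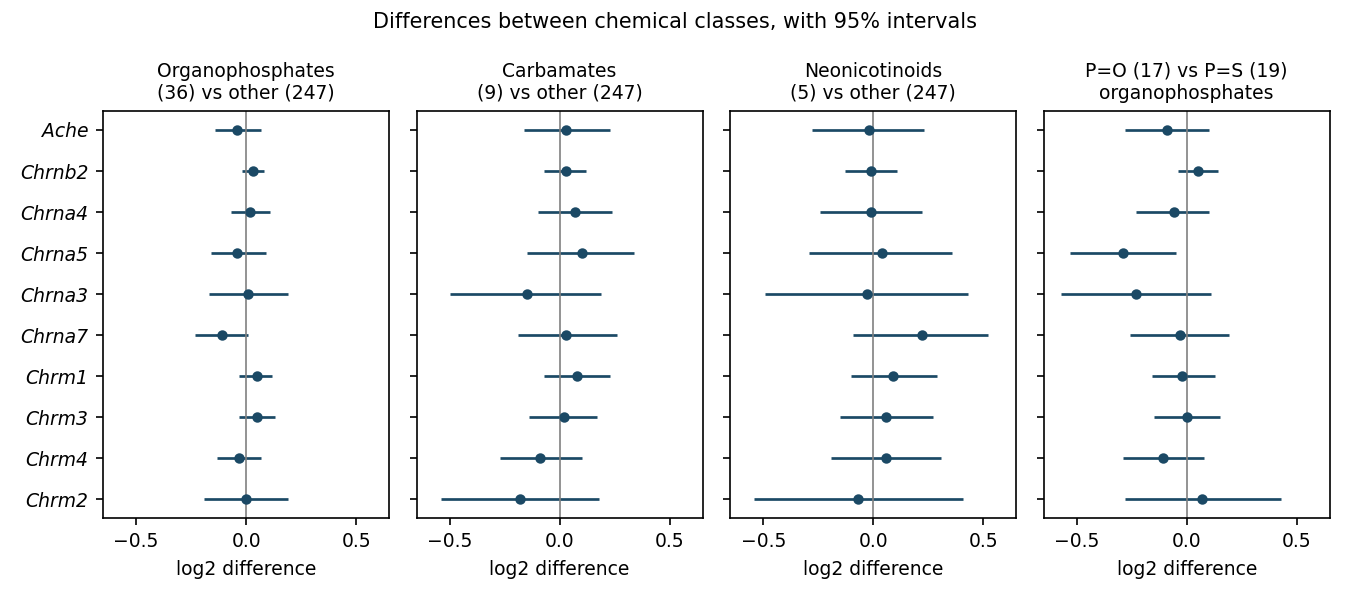
Difference in log2 deviation (horizontal axis) for each cholinergic gene (vertical axis) between chemical classes, from limma on chemical medians, with 95% intervals as bars. All intervals include 0 except that of Chrna5 in the comparison of P=O with P=S organophosphates (−0.53 to −0.05), which was not called after adjustment.

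Over the whole screen the 10 genes seldom left the range of the 49 vehicle libraries. Of 2970 values, 94 (3.16%) lay below the lowest vehicle library and 36 (1.21%) above the highest, 4.38% in all, where over all genes 2.69% lay below, 2.07% above and 4.77% in all. Organophosphates had 15 of 360 values outside (4.17%, beside 5.2% over all genes), carbamates 0 of 90 (beside 4.27%), neonicotinoids 1 of 50 (2.0%, beside 3.28%) and other chemicals 114 of 2470 (4.62%, beside 4.75%). By gene, Chrnb2 had 22 chemicals below the vehicle range and none above, Chrm2 had 20 below and 2 above, Chrna7 14 and 1, Chrm3 12 and 2, and Ache 7 and none. Chrna5 was the reverse, with 2 chemicals below and 17 above. Chrm4 had 6 below and 3 above, Chrna4 7 and 2, Chrna3 2 and 7, and Chrm1 2 and 2. The range of Chrnb2 over vehicle libraries is also the narrowest, with an SD of 0.15, and that of Chrna3 the widest, with an SD of 0.55. Vehicle medians were also off the medians of the chemicals, at 0.07 against −0.02 for Chrnb2 and −0.13 against −0.02 for Chrna5. These offsets go the same way as the 1-sided counts. For Ache, Chrm2 and Chrm4 the offset went the other way. The part of such offsets in the counts was not tested.

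The extremes were single libraries unless stated. The lowest Ache values were −1.32 with trifloxystrobin, a strobilurin like pyraclostrobin, and −0.99 with fenpyroximate, an inhibitor of mitochondrial complex I, and the highest were 0.73 with spirodiclofen and 0.70 with mesotrione. The lowest Chrnb2 values were −0.66 with fenpyroximate and −0.60 with fenamidone (2 libraries, at −0.45 and −0.74), and the highest were 0.44 with camptothecin and 0.33 with topotecan (32 libraries). Trifloxystrobin, fenpyroximate and fenamidone inhibit the respiratory chain, but not every inhibitor of that chain was as low. The complex I inhibitor rotenone, at 0.01 uM, was at −0.10 for Ache and −0.19 for Chrnb2 (2 libraries), inside the vehicle range for both. Pyridaben, at 0.1 uM and also a complex I inhibitor, was at −0.24 for Ache, inside that range, and at −0.50 for Chrnb2, below it. No difference between these chemicals was tested. Chrna4 was lowest with difenzoquat metilsulfate (−1.04) and emamectin benzoate (−0.94), and highest with diclofop-methyl (0.52) and metalaxyl (0.49). Chrna5 was lowest with oxyfluorfen (−1.08) and cyproconazole (−1.04), and highest with MCPA (0.90) and endosulfan (0.90). Chrna3 reached −2.96 with pyraclostrobin, the library with 0 counts described above, and −2.29 with dicamba, and was highest with pyrimethanil (1.11) and fluroxypyr (0.93). Chrna7 was lowest with boscalid (−1.46) and metsulfuron (−1.03), and next to imidacloprid it was highest with fenpropathrin (0.91).

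Of the muscarinic genes, Chrm1 was lowest with diquat dibromide (−1.13) and pyraclostrobin (−0.91), and highest with esfenvalerate (0.50) and spirodiclofen (0.45). Chrm2 was lowest with metsulfuron (−1.83) and boscalid (−1.59), the pair that was also lowest for Chrna7, and highest with dichlorprop (1.27) and fenhexamid (1.20). Chrm3 was lowest with camptothecin (−0.99) and topotecan (−0.86), and highest with metalaxyl (0.64) and paclobutrazol (0.54). Chrm4 was lowest with oryzalin (−0.83) and the organophosphate coumaphos (−0.78), and highest with methylene bis(thiocyanate) (0.74) and milbemectin (0.69).

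**Figure D4:**
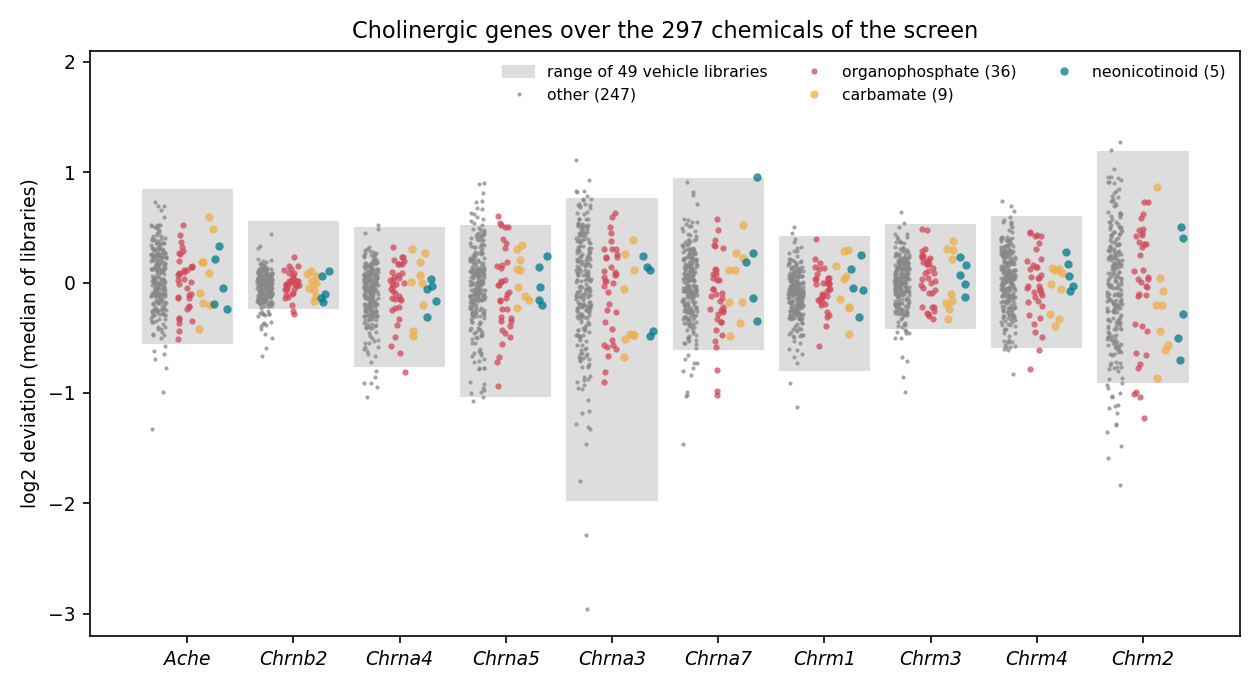
Log2 deviation of the median of each chemical's libraries (vertical axis) for the 10 cholinergic genes, coloured by class, with grey boxes spanning the 49 vehicle libraries. The organophosphates, carbamates and neonicotinoids lie within the range of the 247 other chemicals except for imidacloprid in Chrna7 (0.95), and the lowest points are single chemicals, such as Chrna3 at −2.96.

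The study grouped 34 chemicals into 6 clusters from the same expression values, so the values in them are a description. Cluster 2, with 8 chemicals of which several inhibit mitochondrial complexes I or III and which includes pyraclostrobin, had the most members outside the vehicle range, 21 of 80 values (26.2%), where 11.6% of the values of all genes lay outside with the same chemicals. For chemicals in no cluster it was 90 of 2630 (3.42%), beside 4.3% over all genes. No share can be read as a result about these genes, since the clusters were drawn from the same values. Medians over its 8 chemicals were −0.66 for Ache, −0.66 for Chrna5, −0.52 for Chrna4, −0.45 for Chrm1 and −0.40 for Chrnb2, and these were below 0 with all 8. Chrna3 was below 0 with all 8 as well (median −0.41), Chrm3 (−0.28) and Chrm4 (−0.40) with 7 of 8, and Chrm2 (−0.16) with 5 of 8. Chrna7 had a median of 0.17, with 3 of 8 below 0. In the same chemicals the mean of the neuron markers had a median of −0.51, that of astrocyte markers 0.60 and that of smooth muscle and fibroblast markers 1.60, and their part was not tested.

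Cluster 1 had 7 chemicals, among them the pyrethroids cyfluthrin and fenpropathrin, and its Chrna4 values were all below 0 (median −0.52) with Chrm2 (0.69), Chrna3 (0.70), Chrna7 (0.34) and Chrm4 (0.34) higher in median and neuron markers at −0.16. Cluster 5 consists of the 3 topoisomerase I inhibitors. At the matched 0.3 uM, Chrm3 was at −0.99 with camptothecin and −0.86 with topotecan, and Chrna7 was at −0.84 and −0.26. Irinotecan was given at 10 uM and gave −0.41 for Chrm3 and −0.37 for Chrna7. Camptothecin and irinotecan had 1 library each, so no difference among the 3 was tested. In cluster 3, with 5 chemicals, Chrm2 (0.79) and Chrm4 (0.46) had the highest medians, and in cluster 4, with 4 chemicals, none of 40 values left the vehicle range, beside 4.85% over all genes.

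Cluster 6 held 7 chemicals given at 10 uM with 1 library each, of which 3 were organophosphates. Chrm2 was at −1.83 with metsulfuron, −1.59 with boscalid, −1.23 with azinphos-methyl, −1.01 with methidathion, −0.48 with cyhalofop-butyl, −0.44 with fosthiazate and −0.32 with thiophanate. All 7 were below 0 and 4 lay below the lowest vehicle library. Chrna7 was at −1.46 with boscalid, −1.03 with metsulfuron, −0.98 with fosthiazate, −0.59 with azinphos-methyl, −0.48 with methidathion, −0.34 with cyhalofop-butyl and 0.11 with thiophanate. Ache lay above 0 with 6 of 7 (median 0.32) and Chrm3 below 0 with 7 of 7 (median −0.22). The mean of the neuron markers had a median of 0.01 in these chemicals.

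**Figure D5:**
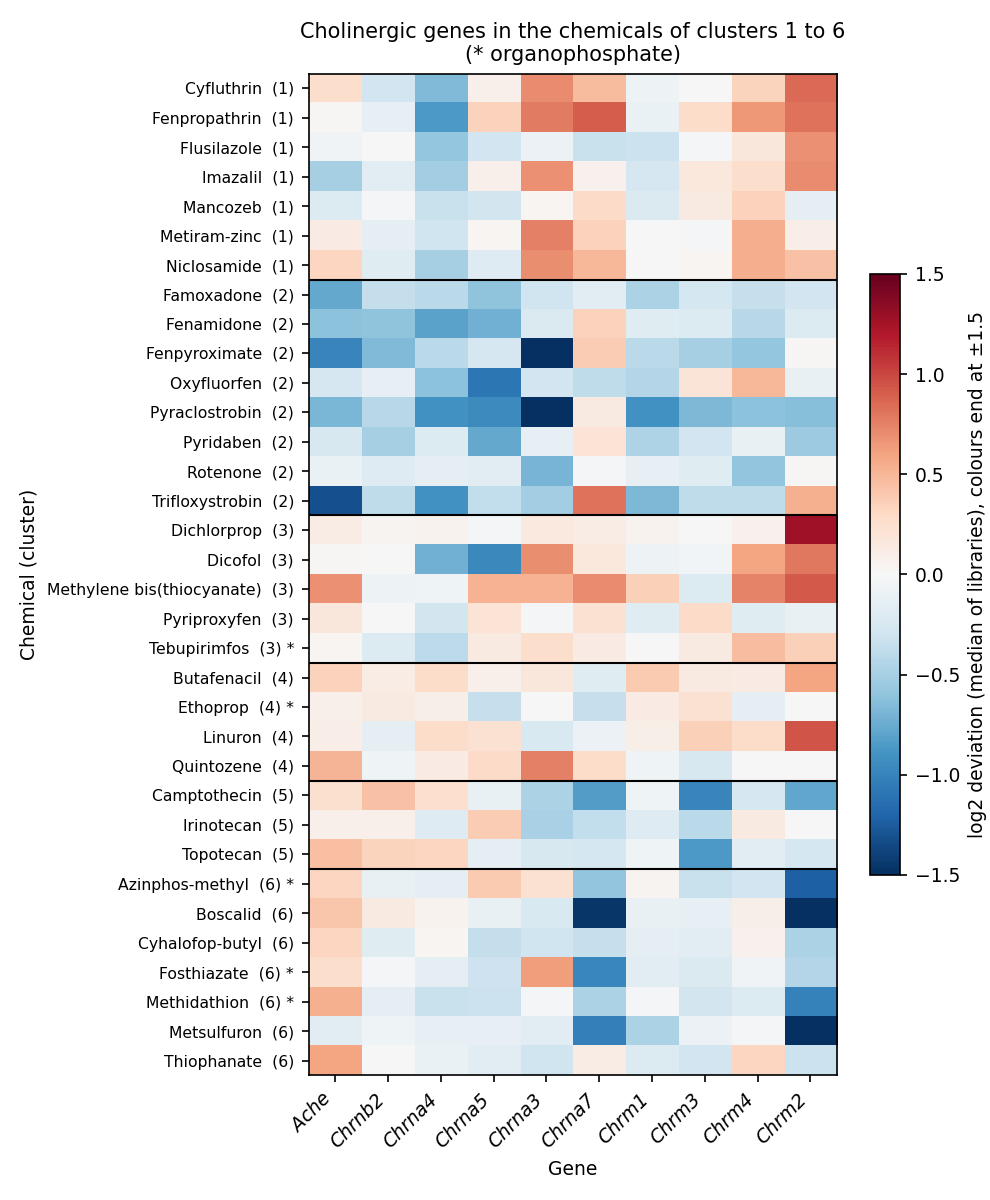
Heatmap of log2 deviations of the 10 cholinergic genes (columns) with the 34 chemicals of clusters 1 to 6 (rows), blue below and red above each gene's centre, with colours ending at ±1.5. Ache, Chrna4, Chrna5 and Chrnb2 are blue through cluster 2, Chrm3 in cluster 5, and Chrm2 in cluster 6, where Chrna7 is blue with 6 of 7 chemicals.

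The members moved with each other only weakly over the screen. Spearman correlations over the 297 chemical medians, given as a description since chemicals share batches and processing, had a median of 0.10 over 45 pairs (0.07 over the 49 vehicle libraries). The highest pairs were Ache with Chrna4 (0.35), Ache with Chrm1 (0.34) and Chrna4 with Chrnb2 (0.31), and the lowest was −0.18. Over the vehicle libraries those 3 pairs stood at 0.03, 0.11 and −0.11, and the highest pairs were Chrm1 with Chrna4 (0.50), Chrm1 with Chrm3 (0.44) and Chrm1 with Chrm2 (0.43). The 3 most alike genes of each member were taken from the whole table, so their values are higher by selection and are not compared with those of the members. Ache was most like Gm5506 (0.68), Bnip3 (0.68) and Ldha, the lactate dehydrogenase gene (0.64), with 0.40, 0.47 and 0.47 over vehicle libraries. Chrna4 was most like Sez6l (0.61), Nov (0.57) and Jph4 (0.56), with 0.51, 0.59 and 0.21 over vehicle libraries.

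For the other members the closest genes had lower values. They were Syngr1 (0.41), Lingo1 (0.40) and Camk2a (0.40) for Chrm1, Arhgap20 (0.36), Fat3 (0.35) and Slc7a14 (0.34) for Chrm2, and Syt1 (0.41), Dclk1 (0.41) and Robo2 (0.40) for Chrm3. Chrm4 was closest to Grm2 (0.43), Gng4 (0.42) and Grin1 (0.42), Chrna3 to Asph (0.38), Necab1 (0.33) and Atp1b1 (0.33), and Chrna5 to Gng2 (0.45), Sept3 (0.39) and Hdgfrp3 (0.38). Chrna7 was closest to Arhgap20 (0.44), Slc38a1 (0.41) and Med13 (0.41), so that Arhgap20 led the list of both Chrna7 and Chrm2. Chrnb2 was closest to St6galnac6 (0.44), Cplx2 (0.44) and Neurod2 (0.44), but these stood at −0.06, −0.10 and −0.05 over vehicle libraries.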

How the data were processed

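Poly(A) RNA was sequenced from the cultures. The authors aligned reads with TopHat to mm9 and summed them over RefSeq exons by gene symbol. The deposited count table for pyraclostrobin holds raw counts. For the screen, the deposited values are on a log10 scale, which the authors made from RPKM values by log10 transformation, quantile normalization, centring on each gene and removal of batch effects by a mixed model, so they hold neither levels nor depth. They were converted to log2, and replicates of a chemical were combined by the median. Batches are not in the labels, so no within-batch value could be given. 6 columns of a further count table, for sulforaphane with fenamidone, have no name that assigns them to a sample and are not used here.

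Counts were tested with edgeR 4.0.16 (quasi-likelihood, TMM, at least 10 counts in at least 4 libraries) and the screen with limma 3.58.1 (variance trend), both two-sided with Benjamini-Hochberg adjustment over all genes. Nothing ties the replicates to separate litters, so p-values measure the spread between these libraries, which may be technical. Chemical classes were assigned from chemical structure. Lengths come from an mm9 annotation and promoters from RefSeq (GRCm38.p6). The gene spans given with topotecan begin at those RefSeq start sites, placed in mm9 by sequence match. All members are named, with up to 3 called genes of each other list, the 2 lowest and 2 highest chemicals of each member, and the 3 most alike genes. The members and lists were chosen with earlier results of these data known. Scripts were tested on simulated data. Alternatives were other normalizations, filters, thresholds, DESeq2 1.42.0, a replicate block and leaving out libraries. The fit scaled to neuron markers, the limma fits without a variance trend and the fit without both libraries numbered 428 were chosen after seeing the data.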

Additional observations from a re-analysis of the deposited data

Results flagged for a closer look

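In 90 groups of 4 to 10 values, 6 held a highest or lowest value far from the others by Dixon's test, where chance gives about 1 in 20 groups. In the counts, on the log2(CPM + 0.5) scale, these were Chrm2 in vehicle library 428 (0.28, the nearest other library at 2.32) and Chrm1 in pyraclostrobin library 428 (4.41, the nearest at 4.70). Without both libraries numbered 428, Chrm1 was still called lower with pyraclostrobin (log2 −0.81, edgeR adjusted p = 3.59e-05) and Chrm2 was not called (−0.19, edgeR adjusted p = 0.634). In the screen, on the log2 scale, oxyfluorfen was far above the rest of cluster 2 for Chrm4 (0.50, nearest −0.11). Methylene bis(thiocyanate), at 1 uM, was far above the rest of cluster 3 for Ache (0.69, nearest 0.17) and for Chrna7 (0.71, nearest 0.23). Azinphos-methyl was far above the rest of cluster 6 for Chrna5 (0.39, nearest −0.11). Each of these chemicals had 1 library.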

How the results depend on the processing

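The 6 members called lower with pyraclostrobin were also called in all 8 fits that left out 1 library and in the fit without both libraries numbered 428 (6090 genes called in all, against 4301). The count of called genes was 3248 to 5760 when 1 library was left out, 2631 at an adjusted p under 0.01, 4812 with DESeq2 and 10610 when scaled to the neuron markers (10550 higher, 60 lower, or 99.4% higher, against 2277 higher and 2024 lower). That scaling turned Chrm1 (0.25), Chrm2 (0.92), Chrm3 (0.80), Chrm4 (0.13), Chrna7 (1.02) and Chrnb2 (0.45), and ended the calls of Ache, Chrna4 and Chrna5. Leaving out 1 library gave Chrm2 −0.46 to 0.04 and Chrna7 −0.34 to 0.14, never called. Same-numbered libraries of the 2 groups deviated together with r = 0.375 (428), 0.101 (702), −0.0293 (703) and 0.160 (704). Only 428 was closest to its own number, and against the other numbers the 428 libraries stood at −0.307 to −0.0226. Pairing by number is therefore not shown for 702, 703 and 704. With the number as a replicate block 4804 genes were called, Chrna7 was at 0.02 and no member's call changed.

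For organophosphates, 8 called genes became 119 against vehicle libraries, 14 with single libraries, 13 without the chemicals of the clusters, 5 at 10 uM only, 3 among variably expressed genes and 4 at an adjusted p under 0.01. Called genes of P=O against P=S went from 3 to 19 without the clusters' chemicals and to 1 at 0.01. Neonicotinoids had 0 to 2 called genes when 1 chemical was left out, the 2 without thiamethoxam. Topotecan had 6090 called genes, and 1788 among variably expressed genes. In these, no member was called for any class. Signs near 0 turned as follows. Against vehicle libraries, for organophosphates Chrm4 (0.07), Chrna4 (−0.003), Chrna5 (0.04) and Chrnb2 (−0.09), for carbamates Chrm3 (−0.03), Chrm4 (0.02), Chrna7 (−0.004) and Chrnb2 (−0.09), and for neonicotinoids Chrna3 (0.10) changed sign. With single libraries, Chrm2 (0.05), Chrna4 (−0.02) and Chrnb2 (−0.01) turned for organophosphates, Ache (−0.002) and Chrnb2 (−0.01) for carbamates, and Chrna3 (0.003) for neonicotinoids. At 10 uM only, Chrna3 (−0.02) turned for organophosphates and Chrm3 (−0.04) for carbamates. Without the clusters' chemicals, Chrm2 (0.08) and Chrna3 (−0.04) turned for organophosphates, Chrm3 (−0.01) for carbamates, and Chrm2 (−0.0002) and Chrna7 (3e-05) between P=O and P=S, and without bensulide and tribufos Chrm1 (0.01). Leaving out 1 neonicotinoid gave Ache −0.10 to 0.04, Chrm2 −0.22 to 0.08, Chrna3 −0.11 to 0.07, Chrna4 −0.04 to 0.04, Chrna5 −0.03 to 0.09 and Chrnb2 −0.05 to 0.02. Against chemicals outside cluster 5 in place of vehicle, Chrm4 (−0.20) and Chrna3 (−0.23) were also called lower with topotecan. At an adjusted p under 0.01 against vehicle, Chrm2 was not called. The causes of these changes were not tested. Depth limits Chrm2, Chrna3 and Chrna5, with 0 to 14 counts in the pyraclostrobin libraries, and most chemicals rest on 1 library. The planned sulforaphane comparison was not run.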
